A study of Mus musculus with 12 samples.

Results

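The 7 matrix metalloproteinases (MMPs) Mmp2, Mmp3, Mmp9, Mmp10, Mmp11, Mmp13 and Mmp14 and the 3 tissue inhibitors of metalloproteinases Timp1, Timp2 and Timp3 were followed in mouse pancreatic stellate cells (PSCs). They form a list of gene symbols drawn up with earlier results of these data known, and each symbol matched 1 of the 39179 genes in the count table. Messenger RNA was sequenced from the 3′ end in 12 libraries, 4 from each of 3 cultures: PSCs kept alone (mono-PSCs), PSCs kept with pancreatic cancer cells (2W-PSCs), and PSCs kept with cancer cells and macrophages (3W-PSCs). All PSCs were labelled as C57BL/6 and came from 1 clone of a line immortalised with SV40 large T antigen that carries mCherry. The cancer cells were an EGFP-labelled mouse pancreatic cancer line, and the macrophages were TagBFP-labelled RAW264.7 cells, a mouse macrophage line. Each culture lasted 72 h in a low-serum medium, with the same total number of cells in every culture, after which PSCs were sorted on mCherry and lysed. The sources describe the 4 libraries of a culture as biological replicates of this 1 clone, so the p-values measure the spread between such cultures and not between animals or lines. Because these are bulk libraries, fewer cells making a transcript and less of it per cell cannot be told apart.

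MMPs are zinc-dependent proteases that cut collagens and other proteins of the extracellular matrix, and most are secreted as inactive precursors that other proteases must cleave. TIMPs bind the active site and block it, so the amount of matrix breakdown depends on both families. Stellate cells become fibroblasts in the injured or cancerous pancreas, where they both deposit matrix and remodel it.

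The libraries held between 4561817 and 8093368 counts. 2W replicate 2 was the shallowest and had the fewest genes with at least 10 counts, 10363. Levels are given as CPM, counts relative to the library total, after TMM scaling, which corrects for differences in RNA composition. One fragment is sequenced near the 3′ end of each transcript whatever its length, so CPM needs no correction for length between genes. Other differences in how well genes are counted, such as exon overlap with another gene, remain in comparisons between genes. Summed over 14 stellate and fibroblast markers, mono-PSC libraries held 9531 to 13266 CPM. The range was 13912 to 20985 with cancer cells (2W-PSCs) and 7993 to 9813 with both cell types (3W-PSCs). Of the 12 tested between 3W-PSCs and 2W-PSCs, 6 were called lower, 1, Pdgfra, was called higher and 5 were not called. Over all 11513 genes tested there, 570 were called lower and 660 higher. Of the 13 tested between 3W-PSCs and mono-PSCs, 3 were called higher, 3 lower and 7 were not called. Over all 11551 genes tested in that comparison, 1550 were called higher and 1504 lower. A few abundant genes weigh most in these sums: Sparc alone held 11222 of the 20985 CPM in 2W replicate 2. In every library the stellate marker Des was at 25 counts or fewer and the fibroblast marker Lum at 7 or fewer. Summed over 16 macrophage markers, mono-PSC libraries held 2.44 to 8.79 CPM, 2W-PSC libraries 4.63 to 11.8 and 3W-PSC libraries 18.3 to 66.3. Of these 16, Ptprc, Spi1, Tyrobp, Ctss, Fcgr1, Laptm5 and Cd52 were at 0 in every mono-PSC and 2W-PSC library and Adgre1 in all 12, while the other 8 had counts in at least 1 of those libraries. Of the 5 macrophage markers tested between 3W-PSCs and 2W-PSCs, Cd53 and Mpeg1 were called higher and 3, Csf1r among them, were not called. Csf1r averaged 2.35 CPM in 2W-PSCs, where replicate 2 held 28 of the 44 counts, and 2.31 in 3W-PSCs. Summed over 12 epithelial markers, the range was 0.481 to 2.44 CPM in mono-PSCs, from 75.7 to 148 in 2W-PSC libraries and from 52.5 to 91.2 in 3W-PSC libraries.

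In 3W-PSCs the collagenase Mmp13, the stromelysins Mmp3 and Mmp10 and the inhibitor Timp1 were higher than in either other culture, and the inhibitor Timp3 was lower. Timp2 was lower in 3W-PSCs than in PSCs kept alone. The membrane-type Mmp14, the gelatinase Mmp2 and the stromelysin Mmp11 passed the threshold in no comparison. Mmp9 was counted in 3W-PSC libraries only. The comparisons used edgeR's quasi-likelihood test on the 8 libraries of each pair of cultures, and a gene was called at a Benjamini-Hochberg adjusted p under 0.05 over all genes tested. The comparisons share libraries, so each gives its own value and none is a repeat of another.

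Between 2W-PSCs and mono-PSCs, 7 of the 10 members could be tested and 1 was called, against 0.991% of 11199 genes tested. The libraries did not overlap for 2 of the 7 tested members, Mmp3 and Timp1, both higher in 2W-PSCs, against 3.23% of genes tested, nor for the untested Mmp10 and Mmp13. Between 3W-PSCs and mono-PSCs, 9 were tested and 6 were called, 4 of them higher and 2 lower, where 26.4% of 11551 genes were called. The libraries did not overlap for 4 of the 9 tested members that were higher, against 13.9% of genes tested, and 2 that were lower, against 12.1%. Between 3W-PSCs and 2W-PSCs, 9 were tested and 5 were called, 4 of them higher and 1 lower, where 10.7% of 11513 genes were called. Again 4 of the 9 tested members were higher without overlap, against 11.6% of genes tested, and 2 were lower, against 9.71%. Mmp9, not tested, was also higher without overlap in both comparisons of 3W-PSCs. The median log2 fold change over the tested members was 0.06, 0.32 and 0.27 in these 3 comparisons, against 0.02, 0.012 and 0.0025 over all genes tested.

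**Figure D1:**
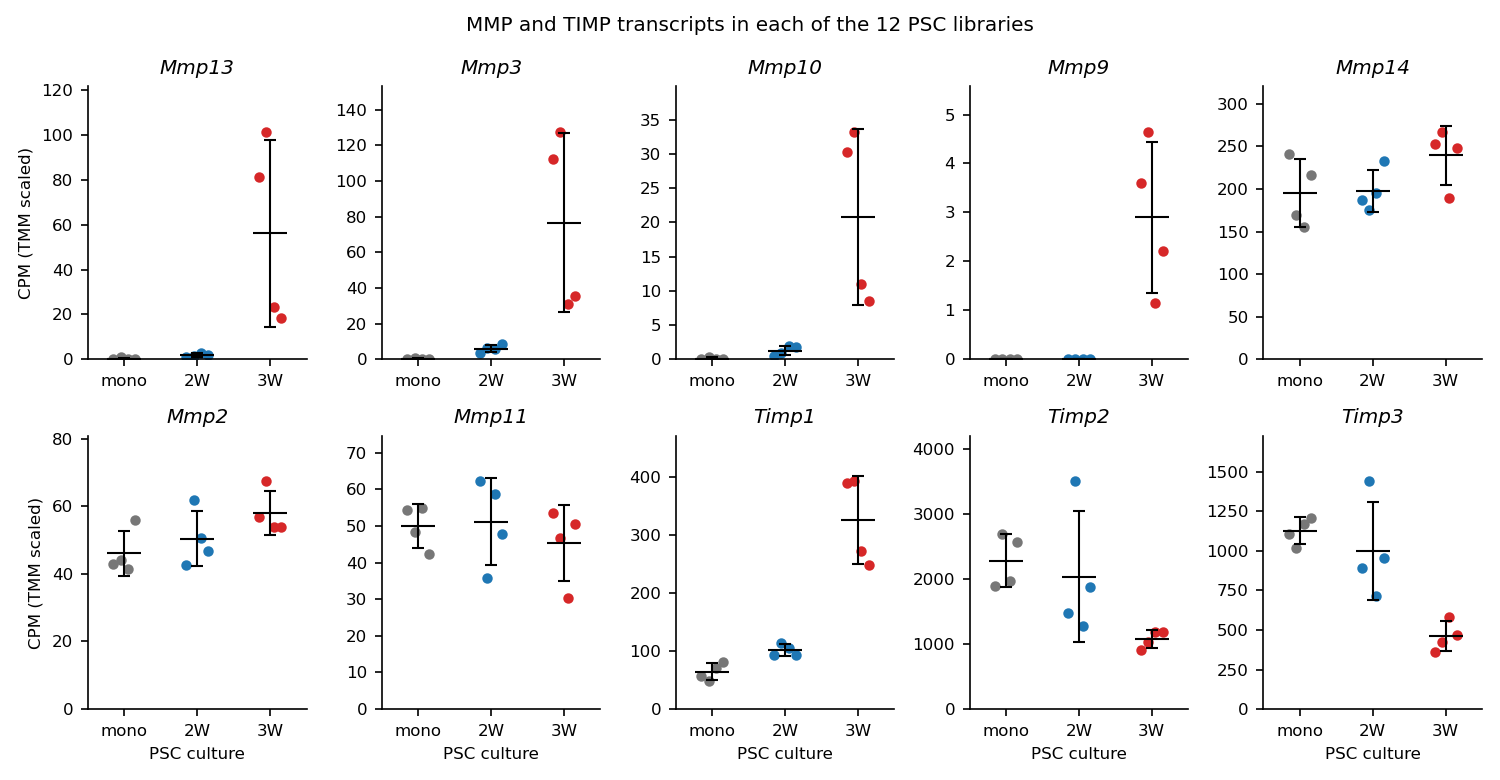
Level of each gene in CPM (y axis, TMM scaled, starting at 0 and set separately for each gene) in the 4 mono, 4 2W and 4 3W libraries, with replicates 1 to 4 from left to right, the mean as a long horizontal line and bars of 1 SD. The 3W points of Mmp13, Mmp3, Mmp10, Mmp9 and Timp1 lie above every other point, and those of Timp2 and Timp3 below. Those of Mmp14, Mmp2 and Mmp11 overlap with the other cultures. Even so, Mmp14 in 3W replicates 1, 2 and 4 and Mmp2 in 3W replicate 2 lie above them, and Mmp11 in 3W replicate 3 below.

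Mmp13, the main interstitial collagenase of rodents, was close to the limit of detection in mono-PSCs. The 4 mono-PSC libraries held 0, 0.794, 0.18 and 0.12 CPM, from 0, 4, 1 and 1 counts. The 2W-PSC libraries held 0.842, 1.48, 2.86 and 1.76 CPM, and the 3W-PSC libraries 81.2, 102, 23.2 and 18.5 CPM. The 3 cultures did not overlap in Mmp13, although the lowest 2W-PSC library and the highest mono-PSC library were 6 and 4 counts. The fitted log2 fold change from 2W-PSCs to 3W-PSCs was 5.0 (SE 0.641, edgeR adjusted p = 0.000840). From mono-PSCs to 3W-PSCs it was 7.73 (SE 0.723, edgeR adjusted p = 4.84e-07).

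Mmp3, stromelysin-1, cuts proteoglycans and fibronectin and can activate other MMPs. Its 4 mono-PSC libraries held 0.174, 0.595, 0 and 0 CPM, 4 counts in all. The 2W-PSC libraries held 3.65, 6.15, 5.56 and 8.32 CPM, and the 3W-PSC libraries 112, 128, 31.2 and 35.7. Every 2W-PSC library was above every mono-PSC library and every 3W-PSC library above both. Mmp3 was the only member called between 2W-PSCs and mono-PSCs, with a log2 fold change of 4.99 (SE 0.811, edgeR adjusted p = 0.00883). The further difference between 3W-PSCs and 2W-PSCs was 3.70 (SE 0.501, edgeR adjusted p = 0.00115), and that between 3W-PSCs and mono-PSCs 8.72 (SE 0.692, edgeR adjusted p = 6.57e-08).

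Mmp10, stromelysin-2, is a close relative of Mmp3 with a similar range of substrates. It was counted in 1 of the 4 mono-PSC libraries, replicate 2, at 0.397 CPM from 2 counts. The 2W-PSC libraries held 0.421, 0.984, 1.91 and 1.76 CPM, and the 3W-PSC libraries 30.3, 33.3, 10.96 and 8.58. The cultures again did not overlap, by a margin of 1 count between 2W replicate 1 and mono replicate 2. The log2 fold change was 4.01 between 3W-PSCs and 2W-PSCs (SE 0.578, edgeR adjusted p = 0.00170) and 7.70 between 3W-PSCs and mono-PSCs (SE 0.748, edgeR adjusted p = 7.45e-07).

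Because mono-PSCs gave so few counts of these 3 genes, the fitted folds against them depend on the small constant added before taking logs. The counts pooled over 4 libraries give the ratio with its counting error alone (exact 95% intervals). Between 3W-PSCs and mono-PSCs it was 479 for Mmp3 (187 to 1759), 259 for Mmp10 (71.5 to 2144) and 234 for Mmp13 (107 to 640). Between 2W-PSCs and mono-PSCs it was 35.8 for Mmp3 (13.7 to 133), 15.6 for Mmp10 (3.95 to 134) and 7.09 for Mmp13 (2.99 to 20.4). The filter on low counts kept Mmp10 and Mmp13 out of the test of 2W-PSCs against mono-PSCs. Mmp3, Mmp10 and Mmp13 reached 10 counts in 0 mono-PSC libraries, and Mmp10 and Mmp13 in 2 of the 4 2W-PSC libraries. They entered the tests against those cultures through the culture where they are high, so counts of members over the tested genes lend no support.

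The 3 genes lie close together. In GRCm38, Mmp13 spans chr9:7272514-7283331, Mmp3 chr9:7445822-7455975 and Mmp10 chr9:7502352-7510240, all protein-coding genes on the plus strand, within a stretch of 237727 bases. The same stretch holds Mmp12, the macrophage elastase, as well as Mmp1b and Mmp1a. Mmp12 had 69 counts in all, every one of them in 3W-PSCs, while Mmp1a and Mmp1b had 1 count each. No 75-base window in the last 500 bases of a Mmp3, Mmp10 or Mmp13 transcript occurred in another gene, so reads from these relatives could be told apart.

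The 120 bases before the start of each of these genes, and of Timp1, are shown because these 4 genes were the ones higher in 3W-PSCs in both comparisons. They are the plus strand of GRCm38.p6 from RefSeq, which gave a promoter for 8 of the 10 members and none for Mmp2 and Mmp9. For Mmp10 the RefSeq start lies upstream of the start given above, chr9:7502352, so its bases end at chr9:7502341. Capitals mark TGANTCA, the letters bound by AP-1 factors, and TATAAA, the TATA box.
Mmp13, chr9:7272394-7272513: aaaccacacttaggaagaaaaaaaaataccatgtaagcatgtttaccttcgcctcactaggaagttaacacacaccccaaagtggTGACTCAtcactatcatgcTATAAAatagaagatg
Mmp3, chr9:7445702-7445821: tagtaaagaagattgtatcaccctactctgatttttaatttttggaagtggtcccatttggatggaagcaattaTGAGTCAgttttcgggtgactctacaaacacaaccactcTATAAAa
Mmp10, chr9:7502222-7502341: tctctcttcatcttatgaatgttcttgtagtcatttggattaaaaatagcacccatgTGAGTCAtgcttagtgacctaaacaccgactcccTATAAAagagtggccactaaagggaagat
Timp1, chrX:20870046-20870165: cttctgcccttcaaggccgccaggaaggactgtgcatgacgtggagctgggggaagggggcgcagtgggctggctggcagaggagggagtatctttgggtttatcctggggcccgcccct

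In windows from 250 bases before to 50 after the start, both strands were searched, and neither motif's matches overlapped the other's. TGANTCA began at -35 in Mmp13, -46 in Mmp3 and -63 in Mmp10, each followed by TATAAA, at -16, -7 and -29, where -1 is the base just before the annotated start. Neither occurred in the windows of Timp1, Timp2, Timp3, Mmp11 or Mmp14. Among 32851 promoter windows of the same length, 7.81% held TGANTCA and 13.6% held TATAAA on either strand. The STAT letters TTCNNNGAA, held by 8.3% of windows, were in none of the 8. These are matches of letters only.

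Mmp9, gelatinase B, degrades denatured collagen and type IV collagen and is made in quantity by macrophages and neutrophils. It had 0 counts in all 8 mono-PSC and 2W-PSC libraries. The 3W-PSC libraries held 3.59, 4.65, 1.15 and 2.21 CPM, from 27, 40, 9 and 17 counts. Taking 3 counts over the group as the limit that 0 allows, Mmp9 was at least 24.1-fold higher than in mono-PSCs and at least 23.2-fold higher than in 2W-PSCs. It fell short of the filter on low counts in each comparison. With no filter the edgeR adjusted p was 2.07e-07 against mono-PSCs and 0.00174 against 2W-PSCs. Macrophage markers moved with it between cultures. In 3W replicates 1 to 4 the macrophage markers summed to 24.9, 18.3, 26.6 and 66.3 CPM. Replicate 2 had the most Mmp9 and the lowest sum. Single markers differed in their order: Csf1r was highest in replicate 2, at 3.14 CPM, and Lyz2 in replicate 4, at 13.9 CPM. Mmp12 had 6, 19, 19 and 25 counts in 3W replicates 1 to 4. What part of Mmp9 and Mmp12 came from macrophages was not tested.

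The same marker values stand beside the collagenase and stromelysins. The summed level of Mmp3, Mmp10 and Mmp13 was 223.7 CPM in 3W replicate 1, 262.6 in replicate 2, 65.4 in replicate 3 and 62.8 in replicate 4. Replicate 4, with the highest sum of macrophage markers, was lowest in these genes, and replicate 2, with the lowest sum, was highest. What part of these 3 genes came from macrophages was not tested. In 2W-PSCs the 3 genes summed to 4.91, 8.61, 10.3 and 11.8 CPM in replicates 1 to 4, beside epithelial markers at 103, 82.6, 75.7 and 148 CPM. In mono-PSCs both sums were at most 2.44 CPM. The part of cancer cell transcripts in the rise of Mmp3 in 2W-PSCs was not tested.

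**Figure D2:**
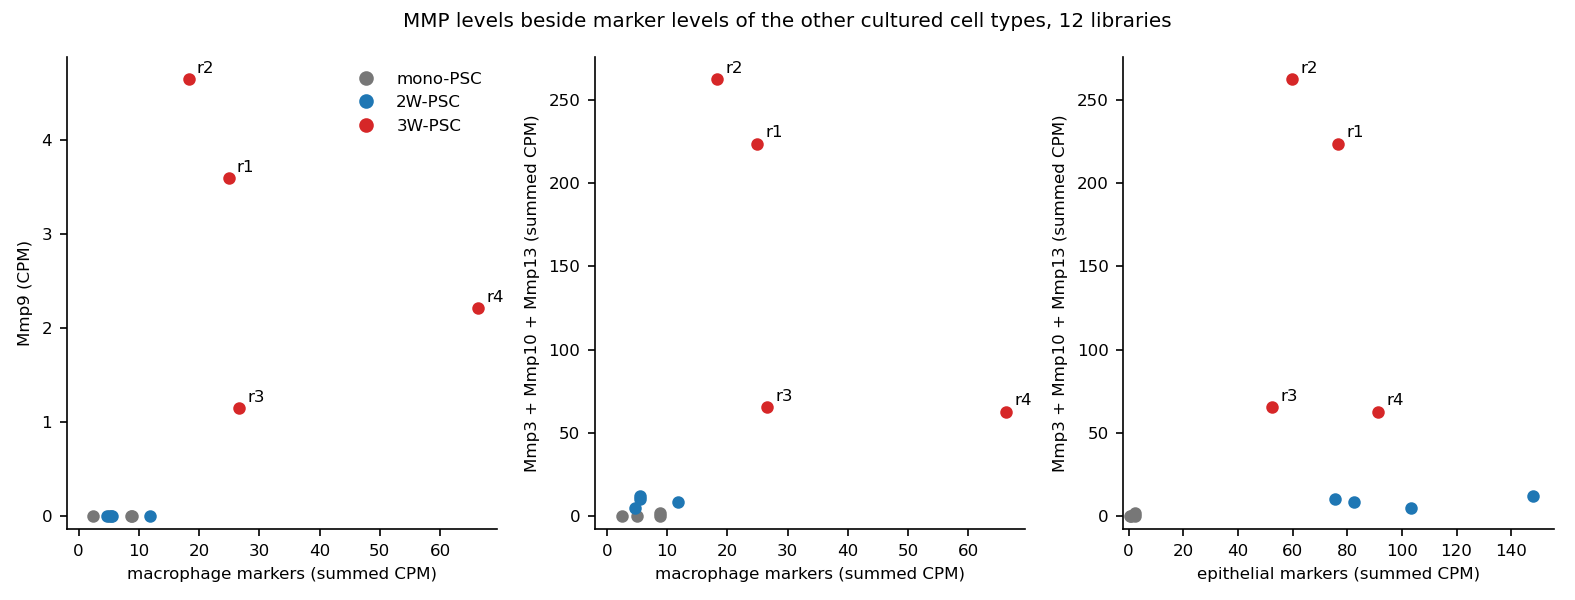
Mmp9 in CPM (left, y axis) and the summed CPM of Mmp3, Mmp10 and Mmp13 (middle and right, y axis) against the summed CPM of 16 macrophage markers (left and middle, x axis) or 12 epithelial markers (right, x axis), 1 point for each of the 12 libraries, with 3W replicates labelled r1 to r4. The 3W library with the highest sum of macrophage markers, r4 at 66.3 CPM, has 2.21 CPM of Mmp9. The 3W library with the lowest sum, r2 at 18.3 CPM, has 4.65.

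The 3W-PSC libraries fell into a high and a low pair for all 4 of these proteases. Replicates 1 and 2 held 112 and 128 CPM of Mmp3 against 31.2 and 35.7 in replicates 3 and 4, and Mmp13 and Mmp10 were likewise higher in replicates 1 and 2. The SD of the 4 libraries was 65.7% of the mean for Mmp3, 61.7% for Mmp10, 74.2% for Mmp13 and 53.1% for Mmp9, against 14.4% for Mmp14. The genes kept similar proportions to each other across this range: Mmp10 was 0.240 to 0.351 of Mmp3 and Mmp13 was 0.516 to 0.794 of Mmp3. In 2W-PSCs Mmp13 was a smaller part of Mmp3, 0.212 to 0.514, from 6 to 18 counts of Mmp13 a library, and the ranges of the 2 cultures touched without overlapping. The labels give no batch that would separate the pairs.

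Mmp14, the membrane-type MMP that cleaves pro-MMP2 at the cell surface, was the most abundant MMP in every culture. Its mean was 196 ± 40.0 CPM in mono-PSCs, 198 ± 25.04 in 2W-PSCs and 239.6 ± 34.6 in 3W-PSCs (SD, n = 4). The cultures overlapped, since 3W libraries ran from 189 to 267 CPM and mono libraries from 156 to 241. The log2 fold change of Mmp14 was 0.28 between 3W-PSCs and mono-PSCs (SE 0.173, edgeR adjusted p = 0.241).

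Mmp2, gelatinase A, whose precursor Mmp14 and Timp2 process together, ranged from 41.3 to 56.0 CPM in mono-PSCs, from 42.5 to 61.7 across 2W-PSC libraries and from 53.8 to 67.3 across 3W-PSC libraries. Its log2 fold change between 3W-PSCs and mono-PSCs was 0.32 (SE 0.163, edgeR adjusted p = 0.155). Mmp11, stromelysin-3, which is processed inside the cell by furin, ranged from 42.2 to 55.0 CPM in mono-PSCs, from 35.9 to 62.2 across 2W-PSC libraries and from 30.3 to 53.6 across 3W-PSC libraries. Its log2 fold change between 3W-PSCs and mono-PSCs was -0.14 (SE 0.187, edgeR adjusted p = 0.603). Mmp11 shares 155 exonic bases with Chchd10 on the opposite strand.

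Timp2 and Timp3 were more abundant than any of the proteases in every culture, while Timp1 was below Mmp14 in mono-PSCs and 2W-PSCs and overlapped with it in 3W-PSCs. Against mono-PSCs, Timp1 was called higher in 3W-PSCs and Timp2 and Timp3 lower. Timp1, an inducible secreted inhibitor that also acts as a growth factor, held 56.8, 48.0, 71.2 and 80.8 CPM in mono-PSCs. It held 93.6, 114, 106 and 92.6 CPM in 2W-PSCs and 389, 392, 273 and 248 CPM in 3W-PSCs. No library of one culture overlapped with another culture, and the highest pair in 3W-PSCs was again replicates 1 and 2. From 2W-PSCs to 3W-PSCs Timp1 rose by a log2 fold change of 1.68 (SE 0.195, edgeR adjusted p = 0.000472). Against mono-PSCs the log2 fold change was 2.33 (SE 0.202, edgeR adjusted p = 2.05e-07). The step from mono-PSCs to 2W-PSCs was 0.68 (SE 0.207) and did not pass the threshold, with an edgeR adjusted p of 0.233.

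Timp2, which both inhibits MMPs and takes part in activating pro-MMP2, was the most abundant of the 10 genes in all 3 cultures. Mono-PSC libraries held 1889.9, 2686, 1964 and 2559 CPM. The 2W-PSC libraries held 1476, 3496, 1282 and 1873 CPM, and the 3W-PSC libraries 908, 1031, 1191 and 1191. Every 3W-PSC library was below every other library, while 2W-PSCs and mono-PSCs overlapped. From mono-PSCs to 3W-PSCs the log2 fold change of Timp2 was -1.08 (SE 0.172, edgeR adjusted p = 0.000172). Against 2W-PSCs the log2 fold change of -0.91 (SE 0.292, edgeR adjusted p = 0.0697) was not called. 2W replicate 2, the shallowest library, was far above the other 2W-PSC libraries, and without it the difference was -0.52 (edgeR adjusted p = 0.0350).

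Timp3, the inhibitor that stays bound to the matrix and also blocks ADAM proteases such as Adam17, held 1107, 1017, 1174 and 1211 CPM in mono-PSCs. It held 892, 1439.9, 715 and 957 CPM in 2W-PSCs and 363, 427, 585 and 469 CPM in 3W-PSCs. The 3W-PSC libraries lay below all others, and 2W replicate 2 was again the highest of its culture. Timp3 was lower in 3W-PSCs by -1.30 against mono-PSCs (log2 fold change, SE 0.168, edgeR adjusted p = 2.01e-05) and by -1.12 against 2W-PSCs (SE 0.237, edgeR adjusted p = 0.0131). The latter call was lost without 3W replicate 1 (adjusted p = 0.0563) or 3W replicate 2 (adjusted p = 0.0598). The summed stellate and fibroblast markers were also lower in all 3W-PSC libraries than in all 2W-PSC libraries, and their part in the levels of Timp2 and Timp3 was not tested. Timp3 lies within Syn3 on the opposite strand and shares 1733 exonic bases with it, and the strand setting of the counting was not given in the sources used here.

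**Figure D3:**
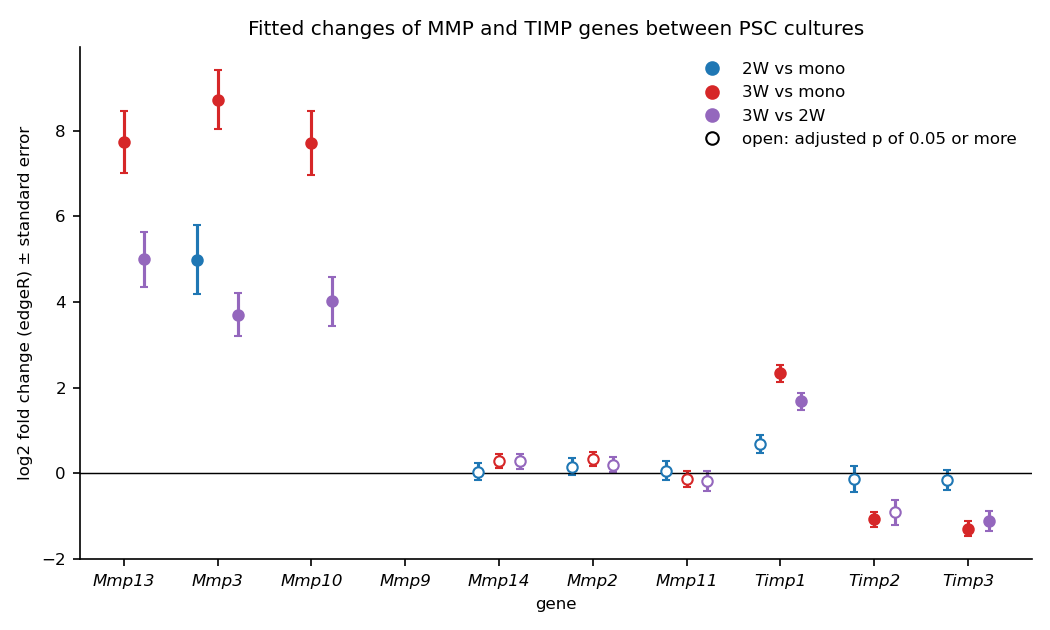
Log2 fold change with its standard error (y axis, edgeR) for each gene tested (x axis) between 2W and mono (blue), 3W and mono (red) and 3W and 2W (purple), with filled points for an adjusted p under 0.05. Mmp13, Mmp3, Mmp10 and Timp1 stand above 0 in both comparisons of 3W-PSCs, Timp3 stands below, and Mmp9 has no point because it was not tested.

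The balance of transcripts between proteases and inhibitors shifted with the culture. The 7 MMPs summed to 292 ± 41.3 CPM in mono-PSCs, 308 ± 25.004 in 2W-PSCs and 499 ± 144.8 in 3W-PSCs (SD, n = 4). The 3 TIMPs summed to 3466 ± 394 CPM, 3134 ± 1321 and 1867 ± 161. The ratio of MMP to TIMP transcripts was 0.0703 to 0.111 in mono-PSC libraries, 0.0557 to 0.150 in 2W-PSC libraries and 0.166 to 0.356 in 3W-PSC libraries. Every 3W-PSC library was above every other library in this ratio, while mono-PSCs and 2W-PSCs overlapped. Inhibitor transcripts still outnumbered protease transcripts in all 12 libraries.

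The make-up of each family changed as well. Timp1 was 1.86 ± 0.417% of TIMP transcripts in mono-PSCs, 3.56 ± 1.16% in 2W-PSCs and 17.7 ± 5.37% in 3W-PSCs (SD, n = 4). Timp2 remained the main inhibitor transcript, at 57.7 ± 3.43% in 3W-PSCs. Mmp3, Mmp10 and Mmp13 together were 0.210 ± 0.312% of MMP transcripts in mono-PSCs, 2.87 ± 0.830% in 2W-PSCs and 28.1 ± 12.9% in 3W-PSCs. Mmp14 went from 66.5 ± 4.28% of MMP transcripts in mono-PSCs to 49.8 ± 9.11% in 3W-PSCs with no called change in its own level.

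**Figure D4:**
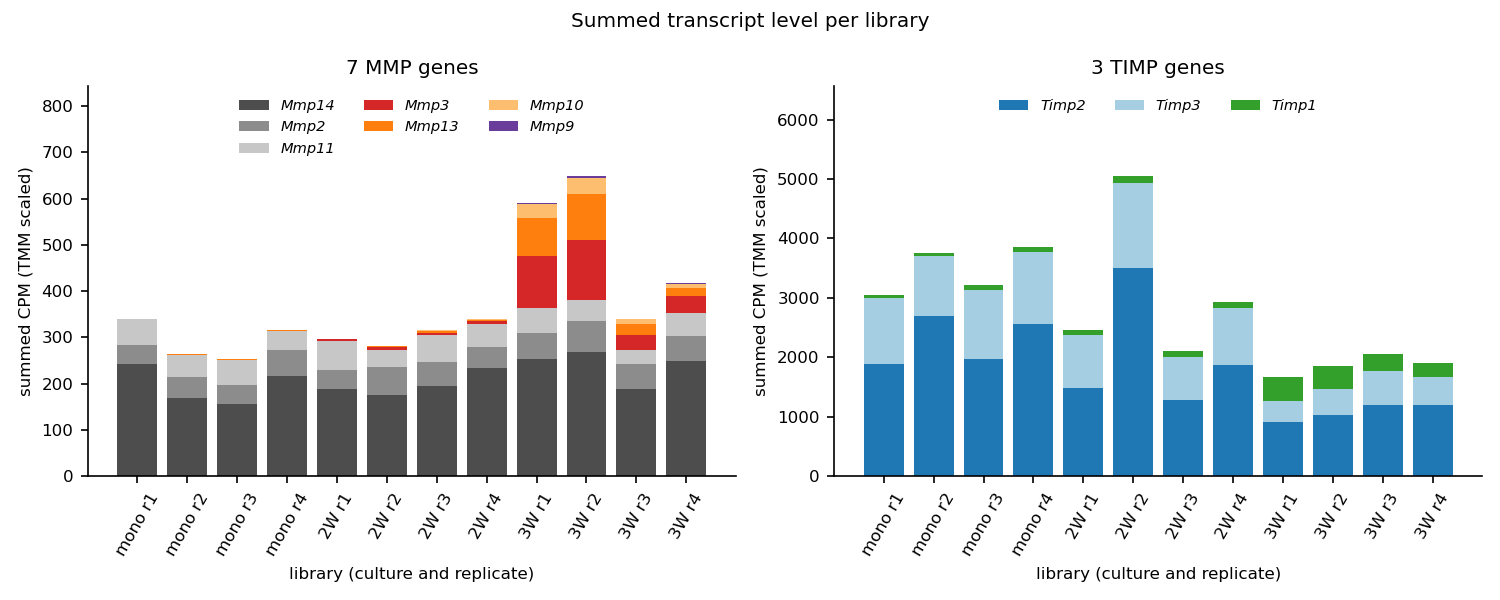
Summed CPM (y axis, starting at 0) of the 7 MMP genes (left) and the 3 TIMP genes (right) in each of the 12 libraries (x axis, r1 to r4 are replicates), stacked by gene. In 3W libraries Mmp3, Mmp13 and Mmp10 add 62.8 to 262.6 CPM to the MMP sum, and the TIMP sum is at most 2049 CPM.

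The order of levels changed accordingly. In mono-PSCs the order was Timp2, Timp3, Mmp14, Timp1, Mmp11 and Mmp2, with the other 4 under 1 CPM, and the libraries of neighbours overlapped between Timp1 and Mmp11 and between Mmp11 and Mmp2. In 2W-PSCs the order of these 6 was the same, Timp2 and Timp3 overlapped, Timp1 stood clear of Mmp11, and Mmp3 came next at 5.92 CPM. In 3W-PSCs Timp1 at 326 CPM and Mmp3 at 76.7 CPM ranked above Mmp14 and Mmp2 respectively, but Timp1 overlapped with both Timp3 and Mmp14, and Mmp3, Mmp2, Mmp13 and Mmp11 each overlapped with the next. Mmp9 was last in every culture.

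Among 8343 genes with a mean of at least 10 CPM, those with the most similar profile were found by the root mean square difference of centred log2 CPM over the 12 libraries. For Mmp3 they were U90926, Mmp13 and Gm4955, at 0.573, 0.868 and 0.92 log2 units. For Mmp13 they were Gm4955 at 0.866, Mmp3 at 0.868 and Zbp1, a sensor of unusual nucleic acids, at 0.915. Gm4955 went from 0.286 CPM in mono-PSCs through 1.77 in 2W-PSCs to 29.9 in 3W-PSCs. For Timp1 they were Ifi204, an interferon-inducible gene, Pdgfra, a receptor for platelet-derived growth factor, and Nrp2, a neuropilin, at 0.25, 0.288 and 0.289. For Timp2 they were Ptrf, Capn2 and Ddit3, at 0.126, 0.135 and 0.159, and for Timp3 Oxct1, Ddit3 and Gt(ROSA)26Sor, at 0.14, 0.179 and 0.192. The nearest profile was Evi5 for Mmp14, Rab11fip2 for Mmp2 and Acbd4 for Mmp11, each at 0.135 or less. Mmp9 and Mmp10 were under 10 CPM on average and were not searched.

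Of 16 other MMP genes, 3 were tested, and Mmp16, a membrane-type MMP, was the 1 called. Over all genes tested, 26.4% were called between 3W-PSCs and mono-PSCs and 10.7% between 3W-PSCs and 2W-PSCs. Mmp16 was lower in 3W-PSCs, with a mean of 19.1 CPM against 31.1 in 2W-PSCs and 30.2 in mono-PSCs. The log2 fold change of Mmp16 was -0.70 against 2W-PSCs (SE 0.189, edgeR adjusted p = 0.0383) and -0.67 against mono-PSCs (SE 0.210, edgeR adjusted p = 0.0252), and these calls were lost in 9 and 3 of 16 alternative settings respectively.

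ADAMs are membrane proteases that shed cell-surface proteins. Of 11, 7 were tested in each comparison with 3W-PSCs, and none was called lower. Against 2W-PSCs 2 were called higher, where 10.7% of all genes were called in either direction. Against mono-PSCs 3 were called higher, where 26.4% of all genes were called. Adam12 entered that test through 3W-PSCs, where it is high, so that count lends no support. Adam17, the sheddase that Timp3 inhibits, averaged 43.0 CPM in mono-PSCs, 40.1 in 2W-PSCs and 77.96 in 3W-PSCs, and its log2 fold change against 2W-PSCs was 0.95 (SE 0.179, edgeR adjusted p = 0.00724). Adam19 averaged 12.6, 13.05 and 33.9 CPM, with a log2 fold change of 1.37 against 2W-PSCs (SE 0.284, edgeR adjusted p = 0.0119). Adam12 was called against mono-PSCs only, 2.69 against 0.401 CPM, and its difference from 2W-PSCs had an edgeR adjusted p of 0.204.

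ADAMTS proteases are secreted relatives, several of which cut aggrecan and versican. Of 19, 10 were tested between 3W-PSCs and mono-PSCs, and 3 were called higher and 2 lower, where 26.4% of all genes were called. Between 3W-PSCs and 2W-PSCs 9 were tested, and 1 was called higher and 1 lower, where 10.7% of all genes were called. Adamts7 entered the test against mono-PSCs through 3W-PSCs, where it is high, so the count there lends no support. Adamts7 averaged 2.54 CPM in mono-PSCs, 5.30 in 2W-PSCs and 50.3 in 3W-PSCs, a log2 fold change against 2W-PSCs of 3.21 (SE 0.358, edgeR adjusted p = 0.000398). Its 3W-PSC libraries held 60.6, 65.8, 35.2 and 39.8 CPM, so replicates 1 and 2 were again the higher pair. Adamts1 went the other way, averaging 668.5 CPM in mono-PSCs, 364 in 2W-PSCs and 103 in 3W-PSCs, and its log2 fold change against 2W-PSCs was -1.82 (SE 0.317, edgeR adjusted p = 0.00517). Against mono-PSCs the aggrecanases Adamts4 and Adamts5 were called in opposite directions, at log2 fold changes of 1.40 (SE 0.259, edgeR adjusted p = 0.000691) and -1.39 (SE 0.230, edgeR adjusted p = 0.000242). Adamts9 was called higher against mono-PSCs at 1.25 (SE 0.333, edgeR adjusted p = 0.0102).

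Of 20 genes that regulate MMP activity or clearance, 14 were tested between 3W-PSCs and mono-PSCs. Of these, 8 were called higher and 2 lower, where 26.4% of all genes were called. Between 3W-PSCs and 2W-PSCs 15 were tested, and 3 were called higher and 2 lower, where 10.7% of all genes were called. Over the alternative settings, the number called between 3W-PSCs and 2W-PSCs ran from 2 to 7. Lcn2 entered both tests through 3W-PSCs, where it is high, and so did Plaur in the test against mono-PSCs. These counts therefore lend no support. Lcn2, a lipocalin that binds MMP9 and protects it from degradation, had 1 count over the mono-PSC libraries, 0, 5, 4 and 0 counts in 2W-PSCs and 40, 45, 28 and 38 counts in 3W-PSCs. Its log2 fold change against 2W-PSCs was 3.50 (SE 0.791, edgeR adjusted p = 0.0177), a call that was lost in 4 of 15 alternative settings. Cd44, a hyaluronan receptor that can anchor MMP9 and MMP14 at the cell surface, averaged 92.2 CPM in mono-PSCs, 109.6 in 2W-PSCs and 328 in 3W-PSCs, a log2 fold change against 2W-PSCs of 1.58 (SE 0.326, edgeR adjusted p = 0.0118). Sparc, a collagen-binding matrix protein, averaged 4382, 6747 and 2417 CPM, with a log2 fold change against 2W-PSCs of -1.48 (SE 0.284, edgeR adjusted p = 0.00791).

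Thbs2, a thrombospondin that takes part in the uptake of MMP2 by the cell, was the only gene of these 4 lists called between 2W-PSCs and mono-PSCs. Over all genes tested there, 0.991% were called. Thbs2 averaged 12.97 CPM in mono-PSCs, 62.0 in 2W-PSCs and 75.9 in 3W-PSCs. Thbs2 had a log2 fold change of 2.27 between 2W-PSCs and mono-PSCs (SE 0.253, edgeR adjusted p = 0.000577) and 0.29 between 3W-PSCs and 2W-PSCs (SE 0.205, edgeR adjusted p = 0.404). In the plasminogen system, which activates several pro-MMPs, the urokinase receptor Plaur passed the threshold in 3W-PSCs against mono-PSCs, at a log2 fold change of 1.84 (SE 0.498, edgeR adjusted p = 0.0109).

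**Figure D5:**
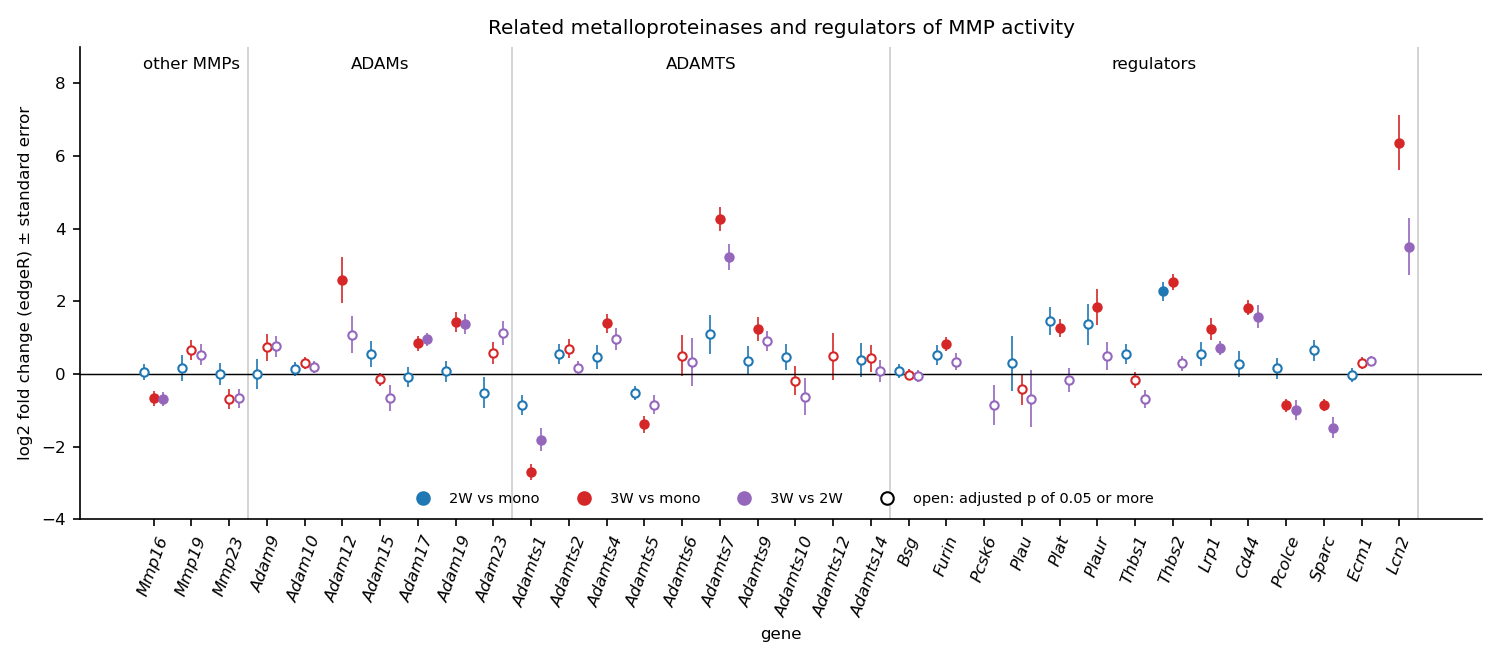
Log2 fold change with its standard error (y axis, edgeR) of tested genes (x axis) among the other MMPs, ADAMs, ADAMTS proteases and regulators of MMP activity and clearance, between 2W and mono (blue), 3W and mono (red) and 3W and 2W (purple), with filled points for an adjusted p under 0.05. Adamts7 and Lcn2 stand highest against both other cultures, Adamts1 lowest, and Thbs2 has the only filled blue point.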

How the data were processed

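RNA of sorted PSCs was sequenced as QuantSeq 3′ libraries (single-end). Per the labels and the study's methods, the authors checked reads with FastQC, used STAR for alignment to GRCm38 and obtained gene counts from featureCounts. The deposited values are whole-number counts per gene, although the methods also speak of normalised read counts; they were used as raw counts. All 12 columns matched the labels on sample number and S number, although the run prefixes of the column names differ from those in the labels. Of 39179 genes, 20802 had no count.

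The tests used R 4.3.3 and edgeR 4.0.16 (filterByExpr, TMM, glmQLFit, glmQLFTest, prior count 0.125), 1 fit for the 8 libraries of each of 3 comparisons, and adjusted p-values over all genes tested. The SE is the size of the log2 fold change over the square root of F. CPM levels use TMM over 12 libraries. The procedure was checked on simulated data. Alternatives were DESeq2 1.42.0, its size factors, other filters, 1 fit of 12 libraries, a prior count of 2, a replicate block and each library left out, plus, chosen after seeing the data, a total without Gm26924 and the mitochondrial rRNA genes. Intervals and limits on 0 counts cover counting error only.

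The members and lists were chosen with earlier results of these data known. Named were all 10 members, up to 6 genes per related list with the largest called change, and, for each member of at least 10 CPM, the 3 nearest profiles; 1 gene that this rule names is not reported here. Gene positions are from GENCODE for GRCm38.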

Additional observations from a re-analysis of the deposited data

Results flagged for a closer look

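Mmp10 in mono replicate 2, at 0.397 CPM from 2 counts, stood apart from the other 3 mono-PSC libraries, which were at 0. It was the 1 such value among 28 groups of 4 libraries examined for a library far from the others. With the other 3 at 0, any count in that library would have been flagged, so nothing is read from the flag.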

How the results depend on the processing

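The number of members called between 2W-PSCs and mono-PSCs, 3W-PSCs and mono-PSCs, and 3W-PSCs and 2W-PSCs was 1, 6 and 5. With at least 10 counts required in every library it was 0, 3 and 3, because that filter removes Mmp3, Mmp10 and Mmp13 against mono-PSCs and Mmp10 and Mmp13 against 2W-PSCs. With each library left out in turn it ranged from 1 to 1, from 6 to 7 and from 4 to 7. Samples with the same replicate number did not deviate together in every pair (correlations from -0.0476 to 0.338, own number best of 4 in 13 of 24). Between 2W-PSCs and mono-PSCs all 4 correlations were positive, from 0.099 to 0.338. The main fits did not take the numbers as pairs, and whether replicates of 1 number share a source was not tested. With the replicate block 1, 6 and 5 members were called, and over all genes 135, 3092 and 752. Of 394 alternative values of single members, 379 kept their direction and side of the threshold. The call of Timp3 between 3W-PSCs and 2W-PSCs was lost in 2, and Timp2 there gained a call in 5 of 16 (adjusted p from 0.0208 to 0.186). Direction reversed in 8, none of them called and each without a single library: leaving out each library in turn, the log2 fold change between 2W-PSCs and mono-PSCs ranged from -0.064 to 0.18 for Mmp11, from -0.064 to 0.14 for Mmp14 and from -0.55 to 0.026 for Timp2, and that of Mmp11 between 3W-PSCs and mono-PSCs from -0.24 to 0.0062. Genes called between 3W-PSCs and 2W-PSCs ranged from 0 to 3 for the other MMPs, 1 to 3 for ADAMs and 2 to 6 for ADAMTS proteases. Depth limits Mmp3, Mmp10 and Mmp13 in mono-PSCs, where no library held more than 4 counts of any of them.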
